A study of Mus musculus with 8 samples.

Results

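Transcripts of 36 genes for lysosomal hydrolases, their lumen cofactors, lysosomal membrane proteins and the transcription factor TFEB were followed in DN3 thymocytes with a Sel1l deletion. The genes were taken by symbol from a list drawn up by lysosomal function, with earlier results of these data known, and all 36 were found among the 16538 genes of the table. Of these, 25 reached a mean of at least 1 RPKM (reads scaled to gene length and library size) over the 8 libraries and were tested, and 11 lay under it. RNA-seq was performed on DN3 thymocytes sorted from 6-week-old C57BL/6 mice, with 4 control libraries (Sel1l-f/f, floxed alleles without Cre) and 4 Sel1l CKO libraries (Sel1l-f/f hCD2cre+). All 8 libraries thus carry the floxed alleles, and the genotypes differ in an iCre transgene under the human CD2 promoter, which recombines from the early thymic progenitor stage on, before the DN3 stage. SEL1L is the adaptor of an ER-associated degradation (ERAD) complex, and the comparison asks what its loss does to transcript levels at the stage of β-selection. The labels do not say whether each library came from a separate mouse, so the p values measure the spread between libraries.

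Lysosomal hydrolases are glycoproteins that fold in the ER, receive a mannose 6-phosphate tag in the Golgi and are sorted to an acid compartment, where they take apart proteins, glycans, sulfated sugars and lipids. The membrane proteins of the lysosome protect its wall, let cholesterol and ions out and, in the case of SCARB2, carry an enzyme there. Many of these genes share a promoter element, the CLEAR element, with the E-box core CACGTG, through which TFEB and its relative TFE3 can activate them together.

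Promoter windows of 300 bases (250 before to 50 after an annotated start, RefSeq, GRCm38.p6) were available for 31 of the 36 genes, in 36 windows. The core CACGTG, searched on both strands, was in 10 of the 36 windows (27.8%), beside 7.15% of all 32851 windows and 11.0% of the windows of tested genes. The longer forms TCACGTG and TCACGTGA, which contain the core, were in 9 (25.0%) and 4 (11.1%) of the windows, beside 3.77% and 0.974% of all windows and 6.54% and 2.21% of the windows of tested genes. The 4 genes with TCACGTGA were Ctsa, Cln3, Ctsd and Mcoln1, and the Lamp1 window held the core 4 times. The following windows are shown 5′ to 3′ on the strand of the gene, with each match to the longest of the 3 forms in capitals. Those of Ctsd, Mcoln1 and Lamp1 show the matches, and those of Tpp1 and Npc2 belong to the genes with a change past the test.
Ctsd, chr7:142387778-142388077, minus strand: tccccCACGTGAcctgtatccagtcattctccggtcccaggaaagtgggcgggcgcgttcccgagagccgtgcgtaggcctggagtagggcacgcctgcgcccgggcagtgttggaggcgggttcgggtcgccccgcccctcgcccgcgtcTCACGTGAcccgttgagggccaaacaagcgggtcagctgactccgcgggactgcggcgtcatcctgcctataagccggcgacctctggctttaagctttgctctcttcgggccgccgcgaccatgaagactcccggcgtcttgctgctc
Mcoln1, chr8:3500269-3500568, plus strand: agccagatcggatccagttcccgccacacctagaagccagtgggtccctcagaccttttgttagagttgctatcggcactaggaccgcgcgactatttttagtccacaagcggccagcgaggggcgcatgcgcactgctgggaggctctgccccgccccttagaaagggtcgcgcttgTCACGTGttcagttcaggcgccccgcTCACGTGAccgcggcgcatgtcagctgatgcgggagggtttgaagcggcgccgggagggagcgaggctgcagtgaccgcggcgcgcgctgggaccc
Lamp1, chr8:13158911-13159210, plus strand: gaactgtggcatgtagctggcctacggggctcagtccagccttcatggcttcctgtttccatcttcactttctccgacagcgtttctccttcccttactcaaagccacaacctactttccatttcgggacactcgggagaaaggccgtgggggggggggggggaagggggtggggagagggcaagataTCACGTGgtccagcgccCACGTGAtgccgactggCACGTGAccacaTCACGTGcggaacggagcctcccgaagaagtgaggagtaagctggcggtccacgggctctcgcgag
Tpp1, chr7:105752186-105752485, minus strand: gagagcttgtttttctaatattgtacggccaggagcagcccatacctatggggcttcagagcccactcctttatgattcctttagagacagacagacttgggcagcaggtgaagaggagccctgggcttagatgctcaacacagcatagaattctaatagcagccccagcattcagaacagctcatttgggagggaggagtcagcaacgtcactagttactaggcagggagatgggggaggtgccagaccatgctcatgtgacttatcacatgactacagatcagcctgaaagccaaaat
Npc2, chr12:84773063-84773362, minus strand: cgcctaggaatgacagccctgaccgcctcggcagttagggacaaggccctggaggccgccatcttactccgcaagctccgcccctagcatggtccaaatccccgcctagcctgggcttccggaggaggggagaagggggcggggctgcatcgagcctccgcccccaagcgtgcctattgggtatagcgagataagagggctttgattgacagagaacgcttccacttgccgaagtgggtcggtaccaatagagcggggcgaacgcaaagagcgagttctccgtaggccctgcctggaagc
The Tpp1 and Npc2 windows held none of the 3 forms, which says only that these letters are not in these windows.

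The libraries held between 32900253 and 50401359 counted reads. In RPKM, control replicates 1 to 4 had 1.83, 1.66, 1.61 and 1.57 of Sel1l itself, against 0.917, 0.876, 1.32 and 1.23 in the Sel1l CKO replicates in the same order. The mean in Sel1l CKO was 65.1% of control (log2 fold change -0.59 ± 0.13 SE, limma adjusted p = 0.0327), without overlap of the genotypes. The call held in 2 of the 8 fits that left out 1 library, with an adjusted p of up to 0.0984 without control replicate 1. These values take in all counted reads of the gene and do not measure SEL1L protein. The paper describes depletion by this Cre as efficient, with qPCR of Sel1l and a Western blot of SEL1L in sorted DN3 cells. DN3 markers such as Il2ra, Ptcra, Rag1, Notch1 and Cd3g were present in every library, and the 10 listed markers summed to 363 to 403 RPKM in control against 300 to 340 in Sel1l CKO, without overlap, with 0 of 10 called (Notch3, Cd3e and Cd3g were each lower without overlap). On the second principal component, Sel1l CKO replicates 3 and 4 (-15.2 and -15.8) stood apart from the other 6 libraries (-4.7 to 10.7). The labels name no batch.

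Lysosomal transcripts were lower in Sel1l CKO DN3 thymocytes for most of the genes measured, by a small amount each. Of the 25 tested genes, 23 were lower in mean and 2 higher, with a median log2 fold change of -0.26 and a range of -0.46 to 0.03. The median over all 6512 tested genes was 0.01, and 47.4% of them were lower. Only Tpp1 and Npc2 fell past the test (limma, adjusted p under 0.05), which is 2 of 25 beside 1.01% of all tested genes called lower. None of the 25 was called higher, beside 4.27% of all tested genes, and 0 had an unadjusted p under 0.05 in that direction, against 12 that were lower. Over all 6512 tested genes, 735 had such a p and were higher and 621 were lower. Values of the genotypes did not overlap for 10 of the 25 (40.0%), each lower in all 4 Sel1l CKO libraries than in all 4 control libraries, beside 5.59% of all tested genes. No tested gene of the list was higher without overlap, beside 9.15% of all tested genes. Since these are bulk samples, fewer cells with a transcript and less of it per cell cannot be told apart.

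**Figure D1:**
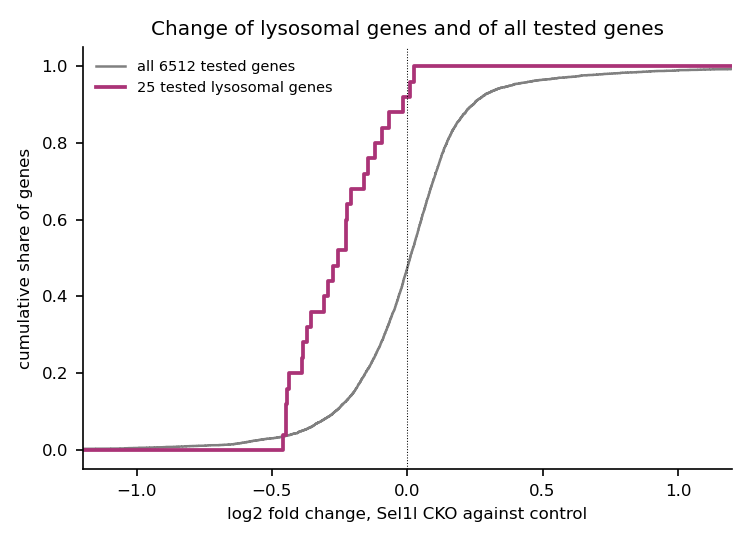
Cumulative share of genes (vertical axis) against the log2 fold change of Sel1l CKO over control (horizontal axis) for the 25 tested lysosomal genes and all 6512 tested genes. The lysosomal curve lies to the left, with a median of -0.26 against 0.01, and runs from -0.46 to 0.03.

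Summed over the 36 genes, the reads per 1000000 counted were 3315, 3704, 3977 and 3354 in control replicates 1 to 4 and 2731, 2516, 3183 and 3227 in Sel1l CKO replicates 1 to 4. The means were 3587 ± 313 and 2914 ± 348 (SD, n = 4 each), and the 2 sets of values did not overlap. The highest Sel1l CKO libraries, replicates 4 and 3, lay close under the lowest control library.

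For levels between genes, reads were divided by the length of the exons, since the deposited RPKM values divide by the whole gene with its introns. This length joins the exons of every annotated transcript of a gene, so ranks between genes depend on the annotation. It was 6051 bases for Ctsb and 1441 for Ctsz, with means of 7863 and 2893 reads in control. On this exon scale, Psap, the precursor of the saposins that help enzymes act on sphingolipids, was highest in control with 252 ± 24.9 (SD, n = 4). Ctsd followed with 169 ± 22.1 and Ppt1 with 134 ± 19.3, whose ranges of mean ± SD overlapped, then Lamp1 with 54.8 ± 4.13 and Ctsz with 49.9 ± 2.28, which overlapped likewise. At the other end, Ctss (0.286 ± 0.178), Arsb (0.320 ± 0.135), Tfeb (0.0852 ± 0.0424) and Ctsh (0.0276 ± 0.0248) were near absent, with between 0 and 25 reads per library for Ctss and Ctsh in both genotypes. All values from here on are the deposited RPKM, and all changes are on the log2(RPKM + 0.1) scale.

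Among the proteases outside the cysteine cathepsins, all 3 were lower. Tpp1 (chr7:105744811-105752235, minus strand, GRCm38), which cuts tripeptides from the ends of proteins, stood at 10.1, 11.0, 11.0 and 10.1 RPKM in control against 7.67, 6.54, 8.11 and 8.31 in Sel1l CKO. It fell to 72.6% of control (-0.46 ± 0.09 SE, limma adjusted p = 0.0136). Every Sel1l CKO library was below every control library, and the call held in each of the 8 fits that left out 1 library, with an adjusted p of 0.0145 to 0.0492. Ctsd, the aspartyl protease cathepsin D (chr7:142375911-142388038, minus strand), stood at 20.9, 25.6, 26.7 and 20.9 RPKM in control against 17.1, 13.6, 19.5 and 18.8 in Sel1l CKO. There was no overlap, and the difference of -0.45 ± 0.13 SE did not pass the test (limma adjusted p = 0.0908). The same-strand gene Gm49369 shares 6757 bases with Ctsd, so reads there could belong to either. Ctsa, the protective carboxypeptidase that keeps neuraminidase and β-galactosidase stable, stood at 18.6 ± 1.63 RPKM in control against 14.3 ± 2.52 in Sel1l CKO (SD, n = 4 each; -0.39 ± 0.12 SE, limma adjusted p = 0.119), with overlap.

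The cysteine cathepsins were uneven. Of 4 tested, Ctsb (-0.45) and Ctsc (-0.38) were lower in mean, whereas Ctsz (-0.07) and Ctsl (-0.02) differed by little. Ctsb (chr14:63122462-63145923, plus strand), an abundant lysosomal endopeptidase, stood at 7.04, 8.86, 9.40 and 7.96 RPKM in control against 6.16, 5.17, 6.20 and 6.76 in Sel1l CKO. Again no library crossed over, and at -0.45 ± 0.11 SE the gene lay just outside the threshold (limma adjusted p = 0.0517). Ctsc, which activates the serine proteases of cytotoxic granules, stood at 2.13 ± 0.405 RPKM in control against 1.61 ± 0.346 in Sel1l CKO (SD, n = 4 each), with overlap and a limma adjusted p of 0.233. Ctsz, the highest of the group on the exon scale, stood at 5.91, 6.17, 6.60 and 6.22 RPKM in control against 6.47, 5.95, 5.51 and 5.86 in Sel1l CKO, intermixed between genotypes (-0.07 ± 0.07 SE, limma adjusted p = 0.608). For Ctsl the difference was -0.02 ± 0.07 SE (limma adjusted p = 0.907).

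Of the 6 tested glycosidases, 5 were lower, 3 of them without overlap, and none passed the test. Gaa, the acid α-glucosidase that breaks down glycogen (chr11:119267887-119285454, plus strand), stood at 5.53, 5.92, 5.52 and 5.52 RPKM in control against 5.12, 4.32, 4.97 and 5.05 in Sel1l CKO (-0.21 ± 0.07 SE, limma adjusted p = 0.141). Man2b1, the acid α-mannosidase (chr8:85083270-85098282, plus strand), stood at 9.13, 8.52, 9.29 and 8.73 RPKM in control against 6.62, 6.36, 8.35 and 7.85 in Sel1l CKO (-0.29 ± 0.09 SE, limma adjusted p = 0.119). Neu1, the lysosomal sialidase (chr17:34931253-34935953, plus strand), stood at 13.3, 13.7, 15.3 and 12.1 RPKM in control against 10.4, 8.59, 12.0 and 11.6 in Sel1l CKO (-0.36 ± 0.11 SE, limma adjusted p = 0.119). In all 3, the highest Sel1l CKO library came close to the lowest control library. The others were Hexa (-0.16), Gusb (-0.15) and Fuca1 (0.03), which act on gangliosides, glucuronides and fucosides, and their genotypes overlapped.

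Sulfatases and lipid hydrolases were mostly weakly expressed. Arsa, arylsulfatase A, which acts on sulfatide, stood at 3.68, 3.79, 4.10 and 4.09 RPKM in control against 3.37, 3.07, 3.91 and 4.09 in Sel1l CKO, with overlap (-0.12 ± 0.10 SE, limma adjusted p = 0.499). The other tested sulfatase, Sgsh, differed by -0.09. Ppt1, which removes fatty acids from cysteines of proteins, stood at 20.5, 20.9, 25.9 and 18.8 RPKM in control against 11.0, 13.2, 20.2 and 20.4 in Sel1l CKO. Sel1l CKO replicates 1 and 2 were far below all controls and replicates 3 and 4 were within the control range, so that the difference of -0.45 came with an SE of 0.20 (limma adjusted p = 0.246).

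All 4 lumen cofactors were lower. Npc2 (chr12:84754562-84773152, minus strand), the soluble protein that takes up cholesterol in the lysosome, stood at 10.2, 12.0, 13.1 and 10.8 RPKM in control against 8.68, 8.65, 9.26 and 8.84 in Sel1l CKO. It fell to 76.8% of control (-0.37 ± 0.08 SE, limma adjusted p = 0.0338). The genotypes did not overlap, but leaving out any 1 library other than control replicate 1 took the adjusted p to 0.0580 or more, and it was highest without control replicate 2. Gm2a, the activator that presents ganglioside GM2 to its enzyme (chr11:55098115-55113029, plus strand), stood at 4.06, 5.47, 5.24 and 4.11 RPKM in control against 3.51, 2.83, 3.73 and 3.73 in Sel1l CKO, without overlap (-0.44 ± 0.13 SE, limma adjusted p = 0.0923). Psap stood at 24.7, 28.9, 30.8 and 26.1 RPKM in control against 23.4, 19.6, 25.2 and 26.8 in Sel1l CKO, with overlap (-0.22 ± 0.11 SE, limma adjusted p = 0.290). Grn, the progranulin gene, had the widest spread in Sel1l CKO, with 8.13 and 5.68 RPKM in replicates 1 and 2 and 11.3 and 12.8 RPKM in replicates 3 and 4, beside 9.93 to 11.9 RPKM in control.

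**Figure D2:**
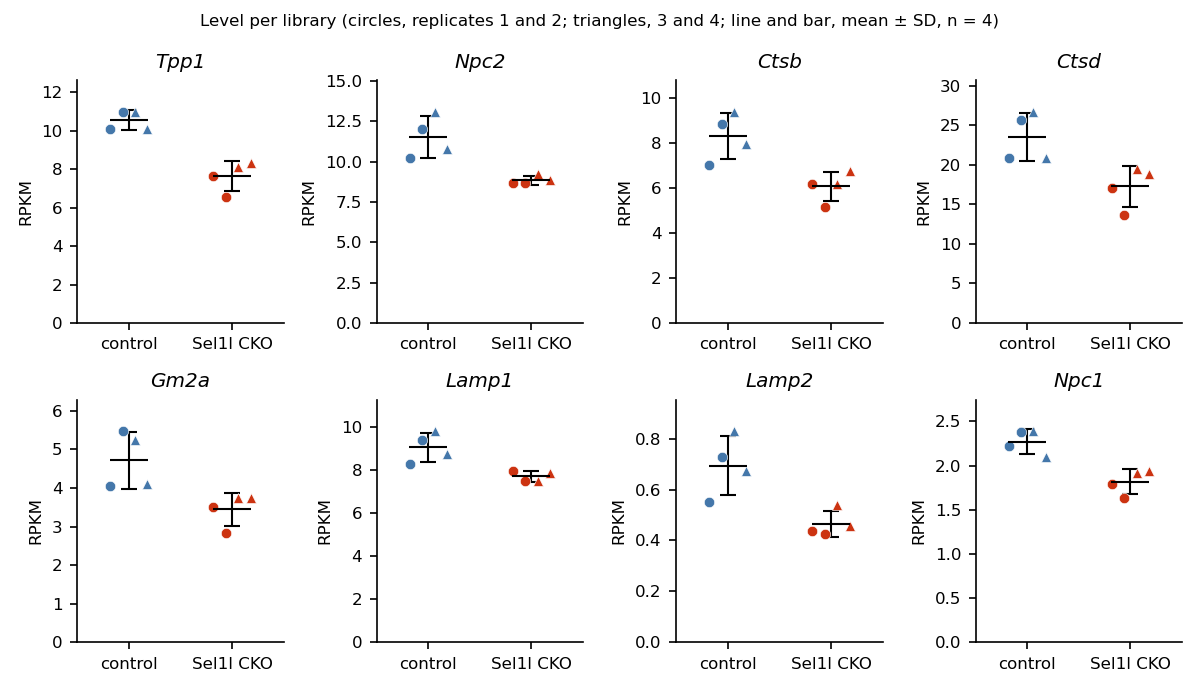
RPKM per library of 8 lysosomal genes in control and Sel1l CKO (n = 4 each), with mean and SD and axes that start at 0. The 8 were taken from the 11 of the 36 genes that were lower without overlap. In each panel every Sel1l CKO library thus lies below every control library. Tpp1 and Npc2 passed the test, in which Lamp2 was not included.

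Of the 7 membrane proteins, 5 were tested and 4 of these were lower. Lamp1, a main glycoprotein of the lysosomal membrane (chr8:13159161-13175338, plus strand), stood at 8.26, 9.39, 9.80 and 8.75 RPKM in control against 7.97, 7.49, 7.50 and 7.88 in Sel1l CKO, without overlap (-0.23 ± 0.07 SE, limma adjusted p = 0.108). Npc1, the membrane protein that takes cholesterol over from NPC2 and exports it, stood at 2.22, 2.38, 2.39 and 2.10 RPKM in control against 1.79, 1.63, 1.92 and 1.94 in Sel1l CKO, again without overlap (-0.31 ± 0.08 SE, limma adjusted p = 0.0591). Both partners of cholesterol export were thus lower in every Sel1l CKO library, and of the pair only Npc2 passed the test. Lamp2, the partner of LAMP1 with a part in autophagy (chrX:38401357-38456454, minus strand), lay under the level filter. It had 1232, 1911, 1607 and 1394 reads in control and 916, 1186, 979 and 827 reads in Sel1l CKO, which corresponds to 0.550, 0.726, 0.829 and 0.671 RPKM against 0.439, 0.427, 0.540 and 0.456 RPKM. The genotypes did not overlap in RPKM, and an exact two-sided permutation test over the 70 assignments gave p = 0.0286. This is the smallest value that 4 against 4 allows. It is unadjusted and follows from the lack of overlap. Mcoln1, a lysosomal calcium channel, differed by -0.28 (limma adjusted p = 0.329) and Cln3 by -0.23 (limma adjusted p = 0.412), both with overlap. Scarb2, the receptor that brings glucocerebrosidase to the lysosome, differed by little (0.01 ± 0.09 SE, limma adjusted p = 0.961).

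**Figure D3:**
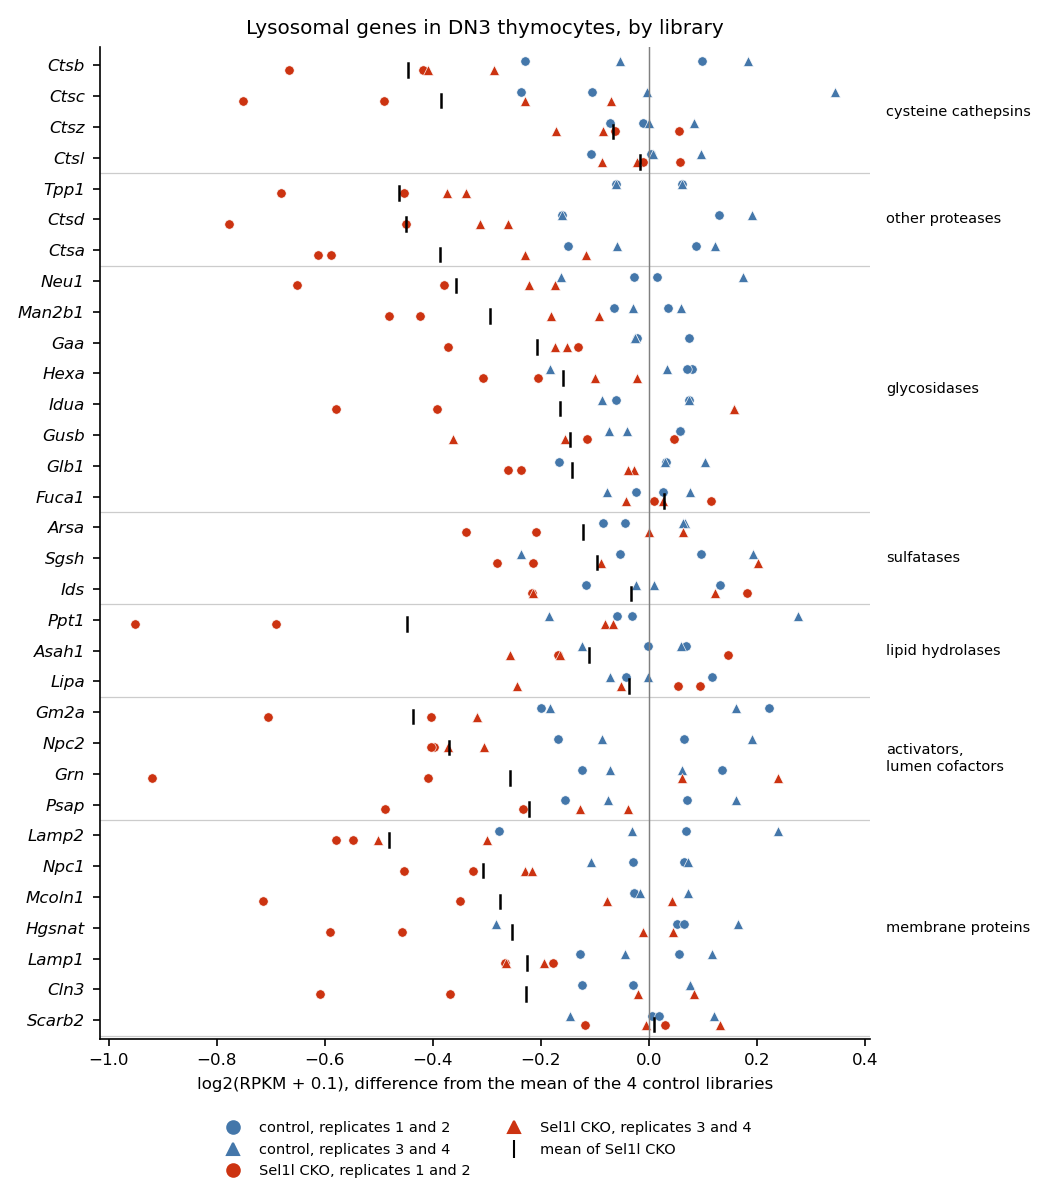
Difference of each library from the control mean on the log2(RPKM + 0.1) scale (horizontal axis) for the 32 genes with a mean of at least 0.1 RPKM, grouped by role. Sel1l CKO replicates 1 and 2 (red circles) lie further left than replicates 3 and 4 (red triangles) for most genes, with medians over the 25 tested genes of -0.35 and -0.45 against -0.13 and -0.12, and the control medians lie between -0.07 and 0.08.

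Under the filter lay 11 genes. Since the deposited RPKM divides by the whole gene with its introns, this filter also takes out long genes with many reads. Glb1 and Lamp2 had means of 1983 and 1536 reads in control, beside 559 for Sgsh, which was tested. When whole reads recovered from the RPKM values were tested with limma voom, a test chosen after the data were seen, 35 of the 36 genes entered, 30 of them lower. This test called 5 lower, beside 1.36% of the 11787 genes it tested. They were Tpp1, Npc2, Ctsb (adjusted p = 0.0388), Npc1 (adjusted p = 0.0456) and Lamp2 (-0.57 ± 0.13 SE, adjusted p = 0.0367). It called 0 higher, beside 339 of the 11787. Among the rest, Hgsnat (-0.25), Idua (-0.16), Glb1 (-0.14), Asah1 (-0.11), Lipa (-0.04), Ids (-0.03) and Ctsh (-0.04) were lower in mean by RPKM and Ctss (0.08) and Arsb (0.10) higher, all with overlap. The levels of Ctsh, Ctss and Arsb lay far under the 0.1 RPKM added before the log, which flattens their changes. Without it, their Sel1l CKO means were 52.5%, 146% and 167% of control. By limma voom, Arsb differed by 0.84 ± 0.34 SE (adjusted p = 0.191), and Ctss did not pass the test either (adjusted p = 0.478). Glb1 shares 6172 bases with Tmppe on the same strand.

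Tfeb, the regulator, was weakly expressed and higher in mean in Sel1l CKO. It had 14, 23, 10 and 31 reads in control and 38, 78, 58 and 29 reads in Sel1l CKO, or 0.00622, 0.00869, 0.00513 and 0.0148 RPKM against 0.0181, 0.0279, 0.0318 and 0.0159 RPKM. The genotypes did not overlap in RPKM, with the lowest Sel1l CKO library just above the highest control library. By limma voom the difference was 1.48 ± 0.44 SE and did not pass the test (adjusted p = 0.0870). The exact permutation p was 0.0286, unadjusted, which any gene without overlap gets here. Over all 16538 genes of the table, 783 were lower and 844 higher without overlap. Its relative Tfe3 was expressed at 2.02 ± 0.156 RPKM in control against 2.10 ± 0.371 in Sel1l CKO (SD, n = 4 each; 0.04 ± 0.12 SE, limma adjusted p = 0.871). Among the tested genes with a promoter window, the 9 with the core CACGTG had a median change of -0.23, and all 9 were lower. The 14 without it had a median of -0.28, and 12 were lower.

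The size of the difference varied between the libraries. Within replicates 1 and 2, the median over the 25 tested genes was -0.41 and 22 were lower. Within replicates 3 and 4 it was -0.15 and 21 were lower. The log2 fold change was higher, mostly a smaller fall, in replicates 3 and 4 for 19 of the 25, beside 3133 of all 6512 tested genes. It was of similar size in both for Npc2 (-0.35 and -0.39), Ctsb (-0.48 and -0.41) and Lamp1 (-0.19 and -0.26), and smaller in replicates 3 and 4 for Tpp1 (-0.57 and -0.36), Ppt1 (-0.78 and -0.12) and Mcoln1 (-0.50 and -0.05). For Grn the values were -0.67 and 0.16. A test of this contrast between the replicate sets, also chosen after the data were seen, called 0 of the 25 genes (lowest limma adjusted p = 0.154), beside 0.276% of all tested genes. An unadjusted p under 0.05 was reached by 5 of the 25 and by 1282 of all 6512 tested genes, a like share. Sel1l moved the same way, at -0.89 within replicates 1 and 2 and -0.30 within 3 and 4 (limma interaction adjusted p = 0.108). Whether the size of the Sel1l transcript difference had a part in the size of the lysosomal difference was not tested.

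**Figure D4:**
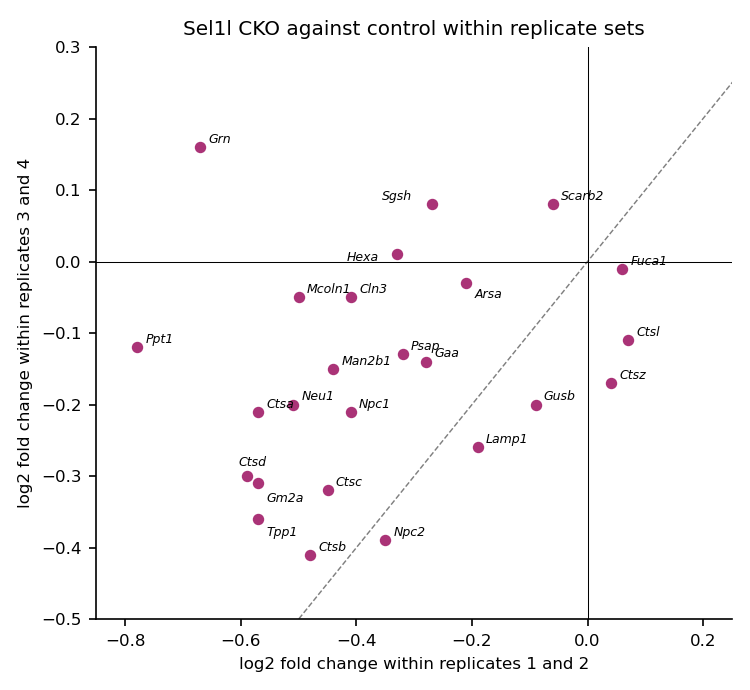
Log2 fold change of Sel1l CKO over control within replicates 1 and 2 (horizontal axis) and within replicates 3 and 4 (vertical axis) for the 25 tested lysosomal genes. The dashed line marks equal changes. For 19 genes the point lies above the line, a smaller fall or a rise in replicates 3 and 4, and Grn is farthest from it.

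Other cell types are rich in lysosomes, so their markers were read in the same libraries. The 13 macrophage or monocyte markers in the table summed to 2.39 to 2.96 RPKM in control against 0.973 to 2.01 in Sel1l CKO, without overlap, and 11 of them had a mean under 0.1 RPKM. Most of this sum was Lyz2, with a mean of 2.26 RPKM in control against 1.25 in Sel1l CKO (limma adjusted p = 0.0611). The defining macrophage genes were close to 0 in both genotypes, with at most 8 reads in any library, and higher in mean in Sel1l CKO. Csf1r was at 0.00142 RPKM in control against 0.00206 in Sel1l CKO, Adgre1 at 0.000270 against 0.000545 and Mertk at 5.9e-05 against 0.000286. Of the other low markers, Fcgr3, C1qa, C1qc, Cd14 and Ms4a7 were higher in mean in Sel1l CKO. Itgam, C1qb, Tyrobp and Fcer1g were lower. Dendritic cell markers summed to 40.7 to 53.1 RPKM and 33.1 to 47.3 RPKM, of which Bst2 made up most. B cell markers summed to 8.22 to 10.2 RPKM and 5.31 to 8.22 RPKM, of which Cd79b made up most. Thymic epithelial markers summed to 3.10 to 4.88 RPKM and 1.95 to 2.27 RPKM, and Epcam fell (-0.95 ± 0.13 SE, limma adjusted p = 0.00273) while the other 4 had a mean under 0.1 RPKM. Markers of double positive thymocytes (1.69 to 3.57 RPKM and 1.94 to 4.40 RPKM) and of erythroid cells (0 to 1.12 RPKM and 0.465 to 2.66 RPKM) overlapped. The part of other cells in the lysosomal differences was not tested.

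Beyond the 36 genes, 101 further lysosomal genes were listed by role, and 62 of them were tested. Of these, 38 were lower and 24 higher, with a median of -0.08. Enzymes not in the list above were lower in 11 of 12, with a median of -0.18, and only Ctsw, a cathepsin of T and natural killer cells, fell past the test. Ctsw stood at 5.15, 5.87, 5.55 and 4.52 RPKM in control against 2.31, 2.11, 3.74 and 3.19 in Sel1l CKO, without overlap (-0.90 ± 0.17 SE, limma adjusted p = 0.0157). Without control replicate 2 its adjusted p was 0.0536. Further membrane proteins were lower in 6 of 8 (median -0.14) and subunits of the proton pump in 9 of 13 (median -0.09), and none passed the test. The proton pump subunit Atp6v0c had the largest difference of its group (-0.52, limma adjusted p = 0.0876).

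The next group holds genes that carry, tag, modify or sort enzymes in the ER, the Golgi and beyond, and not only carriers out of the ER. Of 15 tested, 10 were higher, and Lman1 and Mcfd2 rose past the test. These encode the partners of a cargo receptor that takes glycoproteins, cathepsins among them, from the ER to the Golgi. Lman1 stood at 1.70, 1.65, 1.59 and 1.75 RPKM in control against 2.67, 2.81, 3.32 and 3.45 in Sel1l CKO (0.83 ± 0.09 SE, limma adjusted p = 6.8e-04). Mcfd2 stood at 4.09, 4.49, 4.34 and 3.65 RPKM in control against 6.69, 7.11, 8.46 and 8.49 in Sel1l CKO (0.87 ± 0.10 SE, limma adjusted p = 8.4e-04). Both were higher in every Sel1l CKO library, and, unlike most of the hydrolases, furthest from control in replicates 3 and 4. The mannose 6-phosphate receptor M6pr (-0.27, limma adjusted p = 0.108) and Gnptg (-0.27, limma adjusted p = 0.0611), a subunit of the enzyme that makes the tag, were lower without overlap and did not pass the test. Among 14 tested factors of the TFE family and its control, Lamtor2, a subunit of the Ragulator complex on the lysosome, was called higher (0.25 ± 0.06 SE, limma adjusted p = 0.0432), and the call was lost in each fit that left out 1 library (adjusted p up to 0.128).

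**Figure D5:**
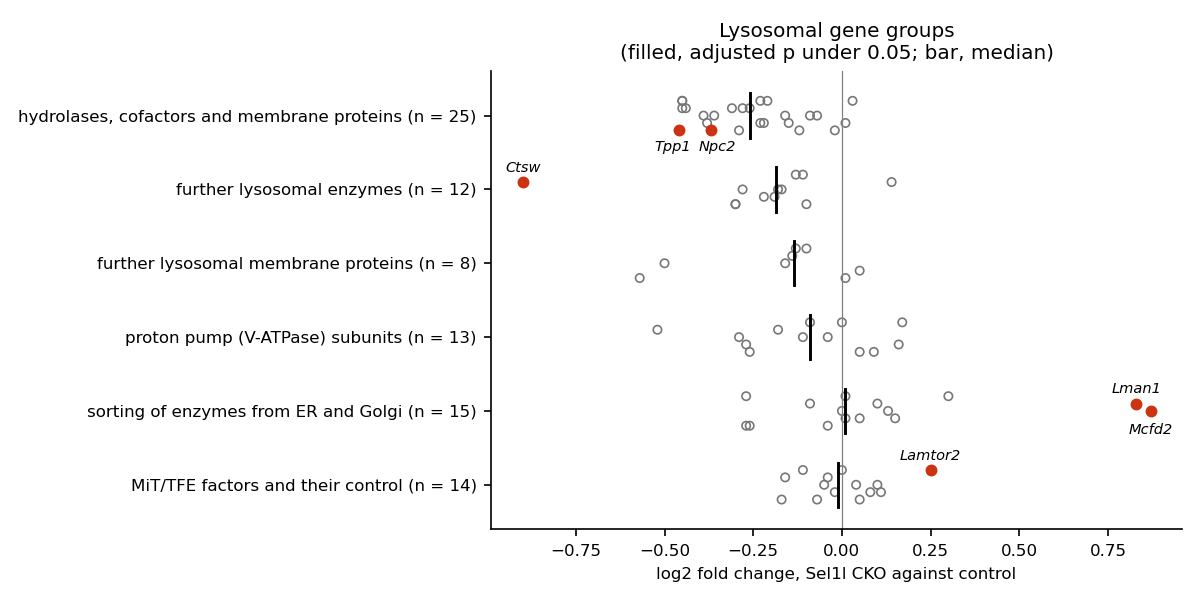
Log2 fold change of Sel1l CKO over control (horizontal axis) for each tested gene of 6 lysosomal gene groups. Filled points passed the test and black bars are medians, which run from -0.26 for the 25 hydrolases, cofactors and membrane proteins to 0.01 for the sorting genes, where Lman1 and Mcfd2 stand at the right.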

How the data were processed

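RNA-seq of sorted DN3 thymocytes from 4 control and 4 Sel1l CKO samples was analysed, grouped by the genotype labels. The authors made stranded mRNA libraries, aligned paired-end reads with STAR (2.5.2b) to GRCm38, counted protein-coding genes with HTSeq (2.7) and tested with DESeq2. The deposited values are RPKM. Their low values are whole multiples of 1 read when the gene span of GENCODE M21 is the length (75.8% of genes, within 0.02 reads), not the exon length (3.0%), which, with the length solved from the values for 4130 more genes, gave whole reads for 99.8% of genes with a value. The strand setting of the counting is not given in the sources used here, so reads of overlapping genes on the other strand (as for Ctsa, Ctsb, Lamp1, Npc1 and Idua) may be included.

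After adding 0.1, RPKM values were put on a log2 scale, and genes with a mean of at least 1 RPKM were tested with limma 3.58.1 (R 4.3.3, mean-variance trend, two-sided, Benjamini-Hochberg over all tested genes, threshold 0.05). limma voom was run on the recovered reads where their mean reached 10. The members and lists were chosen with earlier results of these data known. Every member is accounted for. Those past the test, without overlap between genotypes or highest in level per role are given by library. The procedure was tested on simulated data. Alternatives changed the pseudocount, filter, scaling, test and libraries. Protein sequences were not used here.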

Additional observations from a re-analysis of the deposited data

Results flagged for a closer look

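In a screen of 74 groups of 4 libraries for a single library far from the others (Dixon's test, of which chance would mark about 3.70), 2 were marked, both in control. Gaa was at 5.92 RPKM in control replicate 2, while the other control libraries were at 5.52 to 5.53 RPKM. Mcoln1 was at 2.42 RPKM in control replicate 4, while the others were at 2.25 to 2.27 RPKM.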

How the results depend on the processing

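Tpp1 was called lower in all 20 alternatives that used both replicate sets (limma adjusted p 0.00493 to 0.0492). The fits within 1 replicate set are not among these 20. Npc2 was called in 12 of 20 (lowest adjusted p 0.0119) and Ctsb, not called in the main test, in 7 of 20 (0.0259 to 0.132). The number of the 36 genes called lower was 1 with no filter on low values and 5 with quantile normalization. It was also 5 with a term for replicates 3 and 4 and with limma voom on recovered reads. When 1 library was left out it was 1 to 3. Lower calls over all genes changed too, from 66 of 6512 in the main test to 49 of 15856 with no filter. They were 102 of 6512 with quantile normalization, 182 of 6512 with the term for replicates 3 and 4, and 160 of 11787 with limma voom. With 1 library left out they were 32 to 76 of 6512. In both directions together, 344 genes were called in the main test, 218 with a mean of at least 5 RPKM and 640 with array weights. With a term for replicates 3 and 4 it was 525, and 243 to 317 when 1 library was left out. The median of the tested lysosomal genes lay between -0.41 (within replicates 1 and 2) and -0.15 (within replicates 3 and 4, and with array weights), and kept its sign throughout. Some differences changed sign, most of them near 0 in the main test, but also Hexa (-0.16) and Grn (-0.26). When 1 library was left out, Ctsl lay between -0.05 and 0.01, Scarb2 between -0.04 and 0.05 and Fuca1 between -0.00 and 0.05. Ctsl was at 0.07 within replicates 1 and 2, where Ctsz was at 0.04. Scarb2 was at -0.06 within replicates 1 and 2. Within replicates 3 and 4, Hexa was at 0.01, Grn at 0.16, Sgsh at 0.08 and Fuca1 at -0.01. With array weights, Grn was at 0.05 and Sgsh at 0.03. The cause of these changes was not tested. The labels give samples with the same replicate number only that number in common. Correlations of their deviations from the group means were 0.16, 0.10, 0.44 and 0.01, and not each correlated best with its own number. Control replicates 1 and 2 were at 0.10 to 0.29 with Sel1l CKO replicates 1 and 2 and at -0.25 to -0.22 with replicates 3 and 4. Control replicate 3 was at -0.38 and -0.36 with Sel1l CKO replicates 1 and 2 and at 0.44 and 0.4 with replicates 3 and 4. Control replicate 4 lay between -0.08 and 0.09. With the replicate number as a block, 2 lysosomal genes were called. Over all 6512 tested genes, that fit called 81 lower and 317 in both directions. Sel1l (adjusted p = 0.0601) and Lamtor2 (adjusted p = 0.0958) were no longer called in it. The planned count models of edgeR and DESeq2 were not run. limma voom was the test used on the recovered reads. Depth limits Ctsh, Ctss and Tfeb, where a few reads set the value.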

Other observations

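Slc38a9, an amino acid sensor of the lysosomal membrane that lay under the level filter, had 1819, 1531, 1616 and 1459 reads in control replicates 1 to 4 and 757, 923, 963 and 998 reads in Sel1l CKO replicates 1 to 4. The genotypes did not overlap, and limma voom on recovered reads gave -0.77 ± 0.18 SE (adjusted p = 0.0365). It was named after its values were seen. Sidt2, a lysosomal membrane protein that carries nucleic acids, was lower without overlap, with means of 15.1 and 10.9 RPKM (-0.50 ± 0.17 SE, limma adjusted p = 0.128).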
